A study of Caenorhabditis elegans with 12 samples.

Results

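Catalases and other antioxidant enzymes of *C. elegans* were followed by RNAseq in whole nematodes given the H2S donor FW1256 or carrying the *eat-2* mutation. The genes were taken as a list of 10: the catalases *ctl-1* and *ctl-2*, the superoxide dismutases *sod-1* to *sod-5*, the peroxiredoxin *prdx-2*, the thioredoxin reductase *trxr-1* and the glutathione reductase *gsr-1*. Of these, 6 are among the 5272 genes with values for every library (*ctl-1*, *ctl-2*, *sod-1*, *sod-2*, *prdx-2* and *gsr-1*), and all 6 passed the filter on low counts. The other 4, *sod-3*, *sod-4*, *sod-5* and *trxr-1*, are absent there and were not analysed here per library.

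There were 3 groups of 4 libraries: unexposed WT (strain N2), WT exposed to 500 µM FW1256 from the L1 larval stage, and unexposed *eat-2* mutants (strain DA1116), which eat less because their pharynx pumps slowly and serve as a genetic model of caloric restriction (CR). All nematodes were labelled day 6, were fed *E. coli* OP50-1, and about 1000 whole animals were pooled for each RNA sample. The paper reports that FW1256 and the *eat-2* mutation each delayed development and the peak of egg laying. Animals of the same day may therefore differ in stage between groups, and the part of stage in the results was not tested. One label shared by every sample describes the exposure, and the titles assign it to the 4 exposed samples alone. The labels do not say whether the replicates were grown independently, and the methods speak of separate experiments only in general, so p-values measure the spread between these samples, which may in part be technical.

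Superoxide, formed mainly as a by-product of respiration, is converted to hydrogen peroxide by superoxide dismutases. Hydrogen peroxide is broken down by catalases, haem enzymes that need no reductant, or reduced by peroxiredoxins and glutathione peroxidases, which draw electrons from thioredoxin and glutathione. Thioredoxin reductase and glutathione reductase regenerate these carriers at the expense of NADPH. H2S is often described as an antioxidant, and reduced feeding is often linked to stress resistance, so the comparison asks whether transcripts of these enzymes moved with the donor and with the mutation.

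The estimated counts of the 5272 genes summed to between 14769332 and 19199982 per library, with medians of 18106554 in unexposed WT, 16124815.5 for exposed WT and 16511676 for *eat-2* mutants. Levels are given as CPM (counts scaled to these sums, with TMM factors), and a gene was called changed at an adjusted p under 0.05 in edgeR's quasi-likelihood test over all genes tested. In whole animals, fewer cells of a type and less RNA per cell cannot be told apart. Markers of all 7 tissue classes examined were detected, although the neuronal gene *egl-3* is listed at 0 in every library. The 5 muscle markers in the files were higher in both comparisons with unexposed WT, and their summed level was 1310 to 1570 CPM in unexposed WT, 2900 to 3240 with FW1256 and 1910 to 2450 in *eat-2* mutants. The 4 germline and oocyte markers summed to 8630 to 9740, 10500 to 10900 and 6870 to 7510 CPM in the same order, with 2 higher with FW1256 and 4 lower in *eat-2* mutants. The 4 intestinal markers summed to 27600 to 30500, 27500 to 31900 and 34000 to 38600 CPM, with 3 higher with FW1256 and 4 higher in *eat-2* mutants. Their part in the results on the antioxidant genes was not tested. Smaller marker sets were those of neurons (2 genes, medians of 93.5, 115 and 135 CPM) and sperm (1 gene, 11.5, 4.2 and 8.53). Of 2 embryonic markers, *pal-1* was called higher with FW1256 and lower in *eat-2* mutants. There *hlh-1* was called higher near the threshold (adjusted p = 0.048, edgeR), with groups that overlapped. Of 3 hypodermal markers, *lin-26* was called higher with FW1256, whereas *bli-1* and *rol-6* had negative log2 fold changes that did not pass the test, and none was called in *eat-2* mutants. Against the authors' deposited means, described below, the 5 muscle markers were incompletely counted, from 31.5% (*lev-11*) to 74.8% (*mup-2*). *lin-26* was at 16.1% and *egl-3* at 0%. The part of incomplete counts in the marker differences was not tested. Over all genes tested, 25.5% were called higher and 24.8% lower with FW1256. In *eat-2* mutants these shares were 21.8% and 22.4%.

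With FW1256, 4 of the 6 genes were called: *ctl-1*, *ctl-2* and *prdx-2* were lower than in unexposed WT and *sod-1* was higher. Over all 3616 genes tested, 25.5% were called higher and 24.8% lower. The same 4 genes had groups that did not overlap, compared with 25.5% of all tested genes lying wholly above and 22.5% wholly below. In *eat-2* mutants, 2 of the 6 were called, *ctl-1* and *gsr-1*, both lower, against 21.8% of 3786 tested genes higher and 22.4% lower. Their groups also did not overlap, as was the case for 20.9% of genes above and 22% below. Between FW1256-exposed WT and *eat-2* mutants, 5 of the 6 were called, 2 higher and 3 lower with FW1256, against 33.1% of 3715 genes higher and 36.2% lower. Non-overlapping groups were found for the same 5 genes, and for 32.1% of all genes above and 32.8% below. The median log2 fold change of the 6 genes was -0.47, -0.14 and -0.28 in the 3 comparisons, where that of all tested genes was -0.003, 0.024 and -0.045. These counts and medians describe the 6 genes and were not tested for enrichment. They include *prdx-2*, whose per-library values were only 0.711% of the mean that the authors deposited for it. With FW1256 against unexposed WT the median lay between *ctl-2* (-0.89) and *sod-2* (-0.06). Against *eat-2* mutants it lay between *ctl-1* (-0.64) and *sod-2* (0.08). Both medians therefore depend on *prdx-2* being among the 6. The genes tested come from a set of 5272, of which 3363 are protein-coding and 1902 are pseudogenes. Shares of all tested genes therefore describe this set and not the whole transcriptome.

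**Figure D1:**
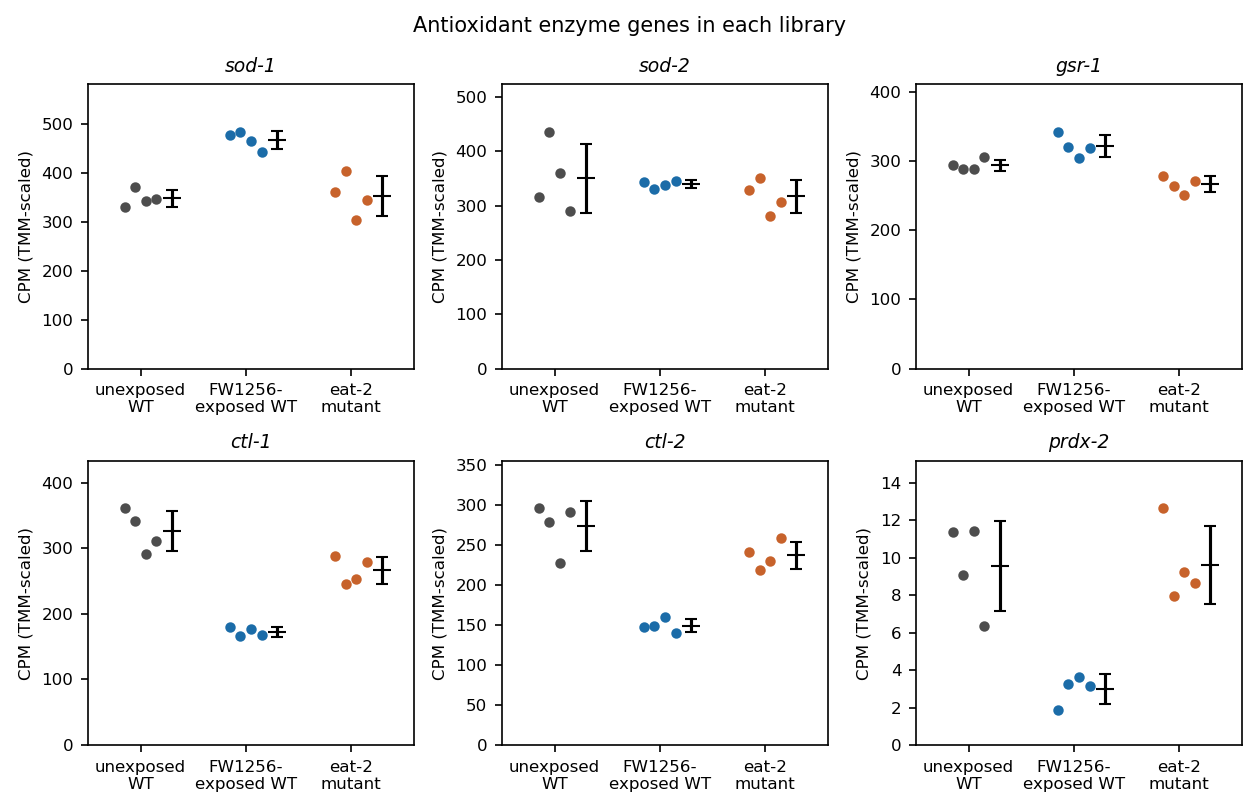
TMM-scaled CPM of the 6 antioxidant enzyme genes (vertical axes, from 0) in each of the 12 libraries, with 4 points per group and the mean ± SD beside them. *ctl-1*, *ctl-2* and *prdx-2* were lowest and *sod-1* highest in all FW1256-exposed libraries, while the groups of *sod-2* overlapped. For *prdx-2* the values cover only 0.711% of the authors' deposited mean.

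The superoxide dismutase *sod-1* (WBGene00004930, WBcel235 chromosome II, 6972706 to 6973887, minus strand) encodes the cytosolic copper/zinc enzyme. Unexposed WT libraries held 329, 372, 342 and 347 CPM, FW1256-exposed libraries 476, 484, 464 and 443 CPM, and *eat-2* libraries 361, 403, 303 and 345 CPM. All 4 exposed libraries lay above all 8 others, whereas *eat-2* mutants spanned the range of unexposed WT on both sides. The mean was 347.6 ± 17.8 CPM in unexposed WT, 466.8 ± 17.95 with FW1256 and 353 ± 41.3 in *eat-2* mutants (SD, n = 4 each). With FW1256, *sod-1* was 1.33-fold of unexposed WT, a log2 fold change of 0.41 ± 0.04 (SE, adjusted p = 7.99e-05, edgeR). Compared with *eat-2* mutants, *sod-1* was 1.31-fold higher with FW1256 (0.39 ± 0.08 on the log2 scale, adjusted p = 0.00132, edgeR). No difference between *eat-2* mutants and unexposed WT was detected (0.02, with a 95% interval of -0.16 to 0.20; adjusted p = 0.833, edgeR).

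The mitochondrial manganese enzyme is encoded by *sod-2* (WBGene00004931, chromosome I, 8434550 to 8435807, plus strand). Its levels were 316, 436, 360.3 and 291 CPM in unexposed WT, 343, 331, 339 and 346 CPM with FW1256, and 329.7, 352, 281 and 307 CPM in *eat-2* mutants. The 3 groups overlapped, and the exposed libraries lay within the wide range of unexposed WT, whose coefficient of variation was 18.2% against 2.02% with FW1256. Neither comparison with unexposed WT passed the test (log2 fold change -0.06 with FW1256, interval -0.28 to 0.17, adjusted p = 0.667; -0.14 in *eat-2* mutants, interval -0.41 to 0.13, adjusted p = 0.354, edgeR). The interval with FW1256 excludes a change of *sod-2* as large as the rise of *sod-1*, and changes within that interval could not be told from none. With FW1256 against *eat-2* mutants the log2 fold change was 0.08 (interval -0.06 to 0.22, adjusted p = 0.273, edgeR).

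The catalases *ctl-1* and *ctl-2* are neighbours on chromosome II and lie on the minus strand, *ctl-2* (WBGene00000831) at 14299556 to 14302027 and *ctl-1* (WBGene00000830) at 14303568 to 14306260. They are separated by 1540 bases with no annotated gene between them, and the third catalase of the species, *ctl-3*, lies 1537 bases beyond *ctl-1* and was not analysed here per library. Each of the 2 genes has 1 annotated transcript of 4 exons, of 1554 bases for *ctl-1* and 1611 for *ctl-2*. CTL-1 is a cytosolic catalase and CTL-2 is the peroxisomal one. As the genes are close paralogs, some reads may have been divided between them by the counting, which limits the precision of each gene alone more than that of their sum.

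*ctl-1* was at 361, 342, 292 and 311 CPM in unexposed WT. It was at 179, 166, 177 and 167 CPM with FW1256 and at 288, 245, 253 and 278 CPM in *eat-2* mutants. The 3 groups did not overlap, in the order unexposed WT, *eat-2* mutants, FW1256-exposed WT, although the lowest unexposed library and the highest *eat-2* library were only a few CPM apart. The mean fell from 326 ± 30.8 CPM in unexposed WT to 172 ± 6.92 with FW1256 and 266 ± 20.3 in *eat-2* mutants (SD, n = 4 each). The log2 fold change with FW1256 was -0.93 ± 0.07 (0.523-fold, adjusted p = 7.99e-06, edgeR), and 10.6% of tested genes had a lower one. In *eat-2* mutants it was -0.29 ± 0.08 (0.816-fold, adjusted p = 0.0119, edgeR). *ctl-1* was also lower with FW1256 than in *eat-2* mutants, at -0.64 ± 0.06 on the log2 scale (adjusted p = 5.87e-06, edgeR).

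*ctl-2* was at 296, 279, 228 and 291 CPM in unexposed WT, at 147, 149, 159.8 and 140.1 CPM with FW1256, and at 242, 219, 229.6 and 259 CPM in *eat-2* mutants. The exposed libraries were below all others, and *eat-2* mutants overlapped with unexposed WT through unexposed replicate 3. The mean was 273.5 ± 31.1, 149 ± 8.15 and 237 ± 17.1 CPM in the same order (SD, n = 4 each). *ctl-2* fell with FW1256 by 0.89 ± 0.09 on the log2 scale (0.54-fold, adjusted p = 4.2e-05, edgeR) and was lower than in *eat-2* mutants by a log2 difference of -0.69 ± 0.06 (adjusted p = 4.9e-06, edgeR). The difference between *eat-2* mutants and unexposed WT was -0.20 ± 0.09 (interval -0.40 to -0.01), which did not pass the threshold (adjusted p = 0.0763, edgeR). It passed without unexposed WT replicate 3 (adjusted p = 0.00833), in 1 edgeR fit over all groups (adjusted p = 0.047) and with DESeq2 (adjusted p = 0.0413).

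**Figure D2:**
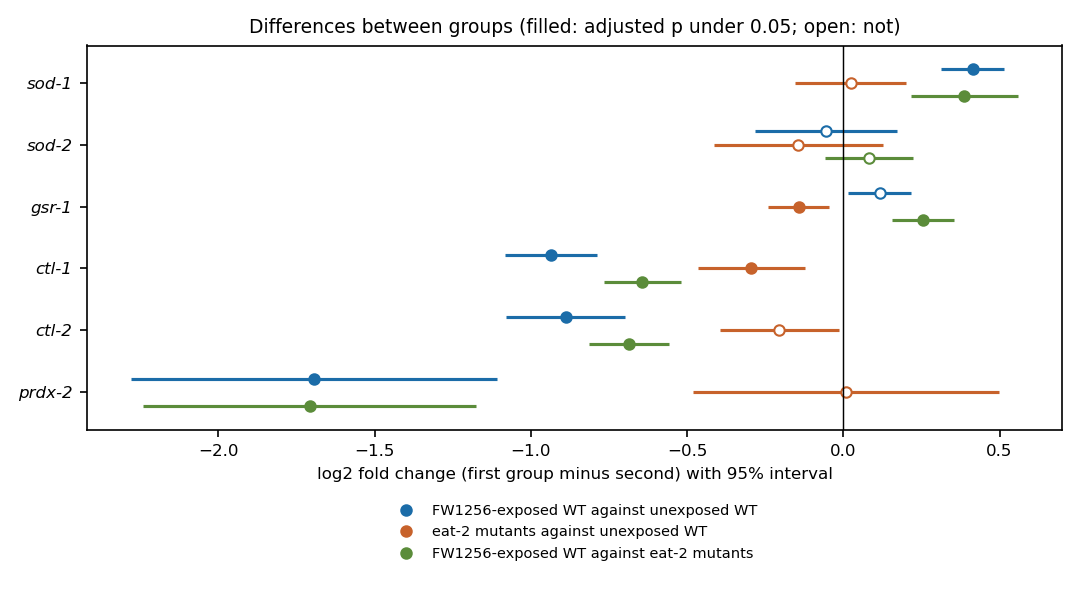
Log2 fold changes of the 6 genes (horizontal axis) with 95% intervals in the 3 comparisons of groups, filled where the adjusted p was under 0.05. With FW1256 the intervals of *ctl-1*, *ctl-2* and *prdx-2* lay below 0 and that of *sod-1* above it, whether the reference was unexposed WT or *eat-2* mutants. Values of *prdx-2* cover only 0.711% of the authors' deposited mean for the gene.

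Both catalases together amounted to 599.8 ± 57.95 CPM in unexposed WT (SD, n = 4, range 519.8 to 656.7). The sum was 321.3 ± 12.95 CPM with FW1256 (307.1 to 336.6), or 53.6% of unexposed WT. In *eat-2* mutants it was 503.4 ± 35.5 CPM (464.5 to 537.2), or 83.9%. The exposed group did not overlap with either of the others, while the highest *eat-2* libraries exceeded the lowest unexposed one. The proportion between the genes moved little beside this, with a *ctl-1* to *ctl-2* ratio of 1.2 ± 0.09 in unexposed WT, 1.157 ± 0.058 with FW1256 and 1.122 ± 0.05 in *eat-2* mutants (SD, n = 4 each), and all 3 groups overlapped. Per kilobase of transcript, *ctl-1* was at 210 CPM and *ctl-2* at 169.8 in unexposed WT, at 110.8 and 92.5 with FW1256, and at 171.3 and 147.3 in *eat-2* mutants. On the same scale *sod-2*, which also has 1 annotated transcript, was at 437, 424 and 396 CPM per kilobase and thus above each catalase in every group.

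The ratio of *sod-1* to the sum of *ctl-1* and *ctl-2*, genes that were combined after their values were seen, was 0.584 ± 0.064 in unexposed WT, 1.46 ± 0.07 with FW1256 and 0.705 ± 0.111 in *eat-2* mutants (SD of CPM ratios, n = 4 each). The lowest exposed library, at 1.38, lay above every library of the other groups. It follows from the directions given above for these 3 genes and is not a balance of peroxide formation and removal, since *sod-2*, which was not called, also forms hydrogen peroxide, and *ctl-3*, peroxiredoxins and glutathione peroxidases also remove it. Enzyme activity was not measured by these data.

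**Figure D3:**
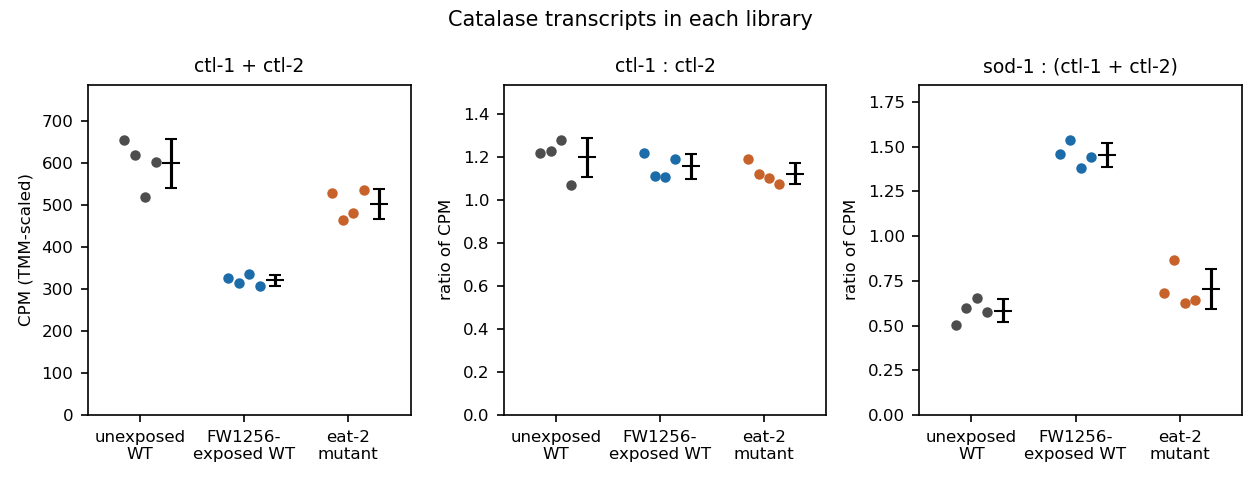
Sum of *ctl-1* and *ctl-2* (CPM), ratio of *ctl-1* to *ctl-2*, and ratio of *sod-1* to the catalase sum in each of the 12 libraries, with the mean ± SD of 4 libraries beside the points and axes from 0. The sum was 53.6% of unexposed WT with FW1256 and the ratio between the catalases overlapped among groups.

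The peroxiredoxin PRDX-2 reduces hydrogen peroxide with thioredoxin as electron donor, and *prdx-2* lies on chromosome II (WBGene00006434, 5378195 to 5379631, plus strand). It was at 11.4, 9.09, 11.4 and 6.34 CPM in unexposed WT, 1.87, 3.27, 3.66 and 3.17 CPM with FW1256, and 12.6, 7.99, 9.22 and 8.68 CPM in *eat-2* mutants. The exposed libraries were lower than all others, and *eat-2* mutants and unexposed WT overlapped. These values cover only a very small part of the gene: the mean of the per-library values was 0.711% of the mean that the authors deposited for it in the table comparing *eat-2* mutants with unexposed WT (166 against 23345 normalized counts). Within that part, *prdx-2* was 0.309-fold of unexposed WT with FW1256 (-1.69 ± 0.26 on the log2 scale, adjusted p = 0.00061, edgeR) and 0.306-fold of *eat-2* mutants (-1.71 ± 0.24, adjusted p = 0.000138, edgeR). In *eat-2* mutants against unexposed WT it was 0.01 (interval -0.48 to 0.50, adjusted p = 0.979, edgeR). Whether the total *prdx-2* transcript moved in the same way cannot be read from the libraries.

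The other genes were closer to complete by this measure. The per-library mean was 96.3% of the authors' deposited mean for *ctl-1*, 93% for *ctl-2*, 115% for *sod-2*, 74.8% for *gsr-1* and 69.8% for *sod-1*. The 3 genes with 1 annotated transcript (*ctl-1*, *ctl-2* and *sod-2*) lay between 80% and 125%, as did 90.2% of the 1302 genes with 1 transcript that had enough counts. Of 1868 genes with more than 1 transcript, 63.8% lay in this range and 93 were under 10%, and *sod-1* (2 transcripts), *gsr-1* (3) and *prdx-2* (3) belong to this class. The part that incomplete counts play in the group differences of *sod-1*, *gsr-1* and *prdx-2* was not tested.

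The glutathione reductase gene *gsr-1* (WBGene00008117, chromosome III, 3650907 to 3652958, plus strand) is the only gene of its kind on the list. Its levels were 294, 288, 288 and 305 CPM in unexposed WT, 342, 320.4, 303 and 319 CPM with FW1256, and 278, 264, 251 and 271 CPM in *eat-2* mutants. The *eat-2* libraries were below all others, and the exposed libraries reached above unexposed WT with replicate 3 in its range. The mean was 294 ± 7.95 CPM in unexposed WT, 321 ± 15.8 with FW1256 and 266 ± 11.5 in *eat-2* mutants (SD, n = 4 each). *gsr-1* was lower in *eat-2* mutants by a log2 fold change of -0.14 ± 0.04 (0.905-fold, adjusted p = 0.0224, edgeR). This call was lost without *eat-2* replicate 3 (adjusted p = 0.0718), without unexposed WT replicate 4 (adjusted p = 0.06) and with scaling to library size alone (adjusted p = 0.0706). With FW1256 the log2 fold change was 0.12 ± 0.04 (interval 0.02 to 0.22), which did not pass (adjusted p = 0.0539, edgeR). It passed without FW1256 replicate 3 (adjusted p = 0.0255), without unexposed WT replicate 4 (adjusted p = 0.027), in 1 fit over all groups (0.0238), with no filter on low counts (0.0345) and with DESeq2 (0.0499). The direct comparison of FW1256 with *eat-2* mutants gave 1.19-fold higher *gsr-1* with FW1256 (0.26 ± 0.04 on the log2 scale, adjusted p = 0.000556, edgeR).

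Of the 6 genes, 4 overlap another annotated gene on the opposite strand: *ctl-2* with Y54G11A.7, *sod-1* with the non-coding C15F1.13, *sod-2* with *dpt-1* and *gsr-1* with C46F11.5. These overlaps are of whole gene spans, introns included, and whether exons overlap was not examined. None of these partners was analysed here per library, and whether counting used strand is not stated. Whether reads of a partner entered the counts of the member was not tested. *ctl-1* and *prdx-2* have no overlapping gene.

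Over the 12 libraries, *ctl-1* and *ctl-2* had a Pearson r of 0.978 in log2 CPM, and after subtraction of each group's mean r was 0.741. Libraries share their scaling between both genes, and the part of shared reads in this relation was not tested. *ctl-1* and *sod-1* had r = -0.842 over all libraries and -0.03 after the subtraction, so their opposite pattern was one of group means. *sod-1* and *sod-2* had r = 0.35 over all libraries and 0.636 within groups, and replicate 2 held the highest value of both genes in unexposed WT and in *eat-2* mutants. Each r is a description over 12 libraries in 3 groups.

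Among 1782 named genes with at least 10 CPM, the 3 closest to *ctl-1* over the 12 libraries were *scl-2* (r = 0.985), *ctl-2* (0.978) and *srlf-7* (0.975). *scl-2*, a gene for a secreted protein of the SCP/TAPS family, was at 655 CPM in unexposed WT, 53.6 with FW1256 and 295 in *eat-2* mutants, so that its pattern had the order of *ctl-1* with a much larger range. For *ctl-2* they were *ctl-1* (0.978), *sma-10* (0.972) and the cytochrome P450 gene *cyp-33E1* (0.972). *sod-1* was most like the ribosomal protein gene *rpl-1* (0.967), *ech-6* (0.964), which encodes an enoyl-CoA hydratase, and the neuropeptide-like gene *nlp-24* (0.963). For *sod-2* the highest values were lower, at 0.878 for *ndub-8*, 0.873 for *agt-1* and 0.871 for *ndub-6*, of which *ndub-8* and *ndub-6* belong to respiratory complex I by their names. *prdx-2* was closest to *dnc-2* (0.979), *ttr-26* (0.951) and *mfsd-12* (0.949), and *gsr-1* to *idha-1* (0.956), which encodes a subunit of mitochondrial isocitrate dehydrogenase, *mog-3* (0.94) and the chaperonin gene *cct-2* (0.93). For *prdx-2* these values describe only the small part of the gene that was counted, at 0.711% of the authors' mean.

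Genes around the antioxidant enzymes were examined as 7 lists, with 182 genes in the annotation, of which 49 are in the files. With FW1256, 16 were higher and 11 lower among 46 tested. In *eat-2* mutants, 10 were higher and 10 lower among 45 tested. They are to be read against all tested genes, of which 25.5% were higher and 24.8% lower with FW1256 and 21.8% higher and 22.4% lower in *eat-2* mutants, with median log2 fold changes of -0.003 and 0.024. The counts of single lists are too small to be set apart from these shares, and no list was tested as a group. Each is given beside values of its named genes, as CPM with SD (n = 4 each).

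Of other peroxide and thiol redox enzymes, 2 rose and 2 fell with FW1256 among 9 tested (median log2 fold change 0.06), and 1 rose and 3 fell in *eat-2* mutants (median -0.09). The falls with FW1256 were those of *trx-2* (158 ± 3.87 to 135 ± 8.43 CPM, adjusted p = 0.00411, edgeR) and *pdi-3* (2400 ± 93.1 to 2130 ± 61 CPM, adjusted p = 0.00224, edgeR). *pdi-3* was also lower in *eat-2* mutants (2050 ± 96.6 CPM, adjusted p = 0.00567, edgeR). The methionine sulfoxide reductase gene *msra-1*, whose product repairs oxidized methionine, went from 72.6 ± 5.11 CPM in unexposed WT to 210 ± 28.5 with FW1256 and was at 73.3 ± 14.4 in *eat-2* mutants. Its log2 fold change with FW1256 was 1.52 (adjusted p = 4.61e-06, edgeR), where that in *eat-2* mutants was 0.02 (adjusted p = 0.93, edgeR). The per-library values of *msra-1* were at 70.7% of the authors' mean. The glutathione peroxidase gene *gpx-2* rose with FW1256 (168 ± 11.7 to 214 ± 9.29 CPM, adjusted p = 0.00129, edgeR), and *gpx-1* was higher in *eat-2* mutants (40.8 ± 4.3 to 50.9 ± 4.26 CPM, adjusted p = 0.025, edgeR). The call of *gpx-1* was lost without unexposed WT replicate 3 and without *eat-2* replicate 2 or 3 (adjusted p up to 0.0827, edgeR). In *eat-2* mutants *ero-1*, an oxidase of the endoplasmic reticulum, fell from 297 ± 5.44 to 238 ± 9.48 CPM (adjusted p = 0.000466, edgeR) and the disulfide isomerase gene *pdi-1* from 1150 ± 13.1 to 962 ± 35.8 CPM (adjusted p = 0.000998, edgeR). Most genes of this list, among them the other glutathione peroxidases and the third catalase, were not analysed here per library or, for *gpx-6*, were near 0 in all groups.

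Of 51 genes for glutathione synthesis and glutathione transferases, only 4 are in the files. *gst-26* rose from 20.7 ± 5.65 CPM to 60.9 ± 3.25 with FW1256 (1.55 on the log2 scale, adjusted p = 6.68e-05, edgeR) and to 34.5 ± 7.7 in *eat-2* mutants (0.74, adjusted p = 0.0184, edgeR), whose libraries overlapped with unexposed WT. The abundant *gst-1* was at 494 ± 8.31, 524 ± 13.6 and 465 ± 36.5 CPM in the 3 groups and was called in neither comparison with unexposed WT. *gsto-3* was higher in *eat-2* mutants (6.66 ± 1.23 to 10.2 ± 1.15 CPM, adjusted p = 0.0156, edgeR), with per-library values at 25.4% of the authors' mean, and *gsto-2* was under 1 CPM in each group mean.

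Among enzymes that make or use peroxide, 3 of 5 rose and 1 fell with FW1256 (median 0.43), and 1 rose and 1 fell in *eat-2* mutants (median 0.44). Acyl-CoA oxidases carry out the first step of peroxisomal fat oxidation and release hydrogen peroxide. *acox-1.1* rose from 43.8 ± 3.08 CPM to 73 ± 3.7 with FW1256 (adjusted p = 6.49e-05, edgeR) and to 59.4 ± 5.76 in *eat-2* mutants (adjusted p = 0.00351, edgeR). *acox-1.4* was at 34 ± 9.88, 68.4 ± 7.64 and 50.5 ± 12.6 CPM, and its rise passed the test with FW1256 (adjusted p = 0.00167, edgeR) but not in *eat-2* mutants (adjusted p = 0.0658, edgeR). *acox-3* fell in both, from 70.6 ± 5.2 CPM to 48.3 ± 1.25 with FW1256 (adjusted p = 0.000187, edgeR) and to 58.2 ± 2.71 in *eat-2* mutants (adjusted p = 0.0119, edgeR). *skpo-3*, a peroxidase gene, was higher with FW1256 (21.6 ± 4.4 to 29.4 ± 3.37 CPM, adjusted p = 0.0309, edgeR), with groups that overlapped. This call was lost in 6 of 8 fits that left out 1 library, all but those without unexposed WT replicate 2 or FW1256 replicate 1, and with library size alone (adjusted p up to 0.0788, edgeR).

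Peroxisome biogenesis, relevant to the compartment of CTL-2, was covered by 4 genes. With FW1256, 2 rose and 1 fell (median 0.12), and in *eat-2* mutants 2 fell (median -0.17). *prx-1*, named for the ATPase that recycles the import receptor in yeast and mammals, was lower with FW1256 (26.9 ± 3.39 to 21.1 ± 2.23 CPM, adjusted p = 0.0307, edgeR), with groups that overlapped. Without unexposed WT replicate 1 or 4, or without FW1256 replicate 1, 2 or 3, *prx-1* was not called (adjusted p up to 0.0858, edgeR), which left no call of a fall in this list. *prx-19*, named for a yeast and mammalian import factor of peroxisomal membrane proteins, was higher (310 ± 7.43 to 358 ± 7.64 CPM, adjusted p = 0.000956, edgeR), as was the membrane fission gene *drp-1* (464 ± 27.8 to 541 ± 17.1 CPM, adjusted p = 0.00346, edgeR). *drp-1* was instead lower in *eat-2* mutants (391 ± 18.1 CPM, adjusted p = 0.0049, edgeR), and so was *prx-14*, whose yeast and mammalian relatives belong to the docking complex of import (317 ± 8.27 to 256 ± 7.71 CPM, adjusted p = 0.000462, edgeR).

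**Figure D4:**
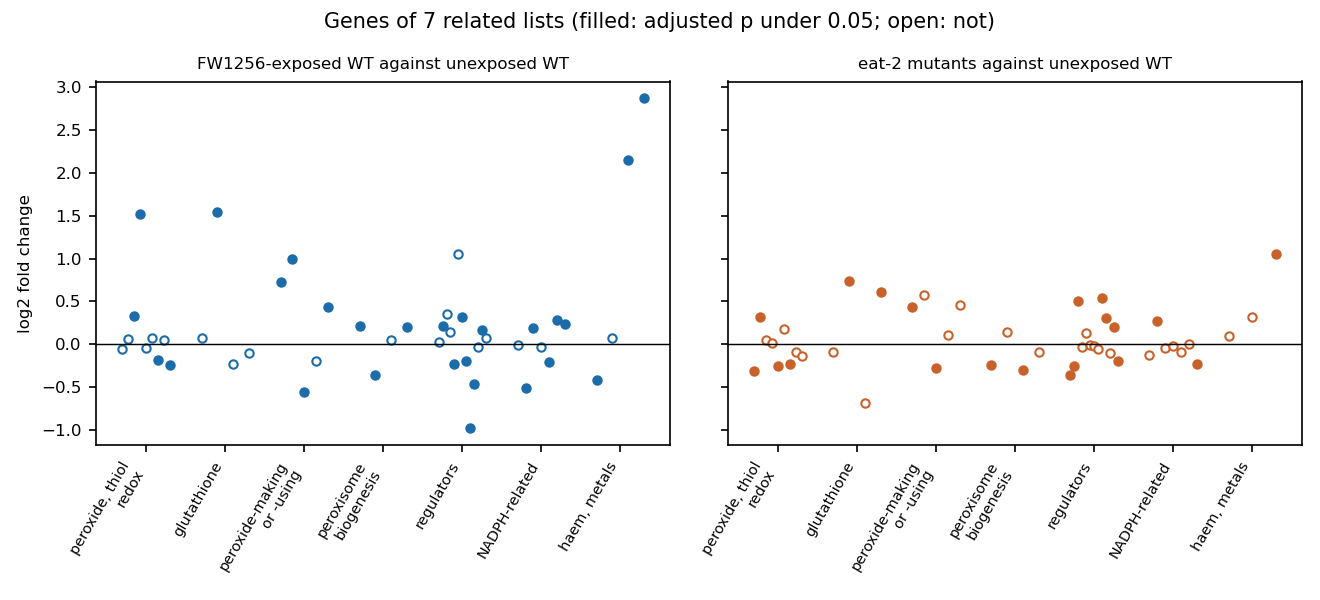
Log2 fold change of each tested gene of the 7 related lists against unexposed WT (vertical axis), with FW1256 at the left and in *eat-2* mutants at the right, filled where the adjusted p was under 0.05. Members of most lists lay on both sides of 0. With FW1256 the largest rise was that of *hrg-7* (2.88), counted at only 0.843% of the authors' mean. *hrg-4* (2.15), *gst-26* (1.55) and *msra-1* (1.52) followed, and *pqm-1* (-0.98) had the largest fall.

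Regulators of the oxidative stress response included 13 genes in the files, of which 3 rose and 4 fell with FW1256 (median 0.07), and 4 rose and 3 fell in *eat-2* mutants (median -0.02). *pqm-1*, a zinc finger transcription factor that acts beside DAF-16, was at 76.8 ± 13.6 CPM in unexposed WT, 39.2 ± 3.17 with FW1256 (-0.98 on the log2 scale, adjusted p = 0.00021, edgeR), while *eat-2* mutants held 112 ± 8.43 CPM (0.54, adjusted p = 0.0049, edgeR). *sek-1*, the kinase upstream of p38 PMK-1, had the same order, at 156 ± 14.6, 114 ± 2.87 and 192 ± 5.01 CPM (adjusted p = 0.000532 and 0.0049, edgeR). The direct comparison of FW1256 with *eat-2* mutants gave -1.53 for *pqm-1* (adjusted p = 4.2e-07, edgeR) and -0.77 for *sek-1* (adjusted p = 2.49e-07, edgeR). The mediator subunit gene *mdt-15* was higher with FW1256 (396 ± 18.1 to 497 ± 13.6 CPM, adjusted p = 0.000223, edgeR), and *akt-1*, a kinase of insulin signalling, was lower in *eat-2* mutants (802 ± 28.4 to 624 ± 31.3 CPM, adjusted p = 0.000514, edgeR). *daf-16* was higher in *eat-2* mutants (48.6 ± 4 to 69 ± 6.48 CPM, adjusted p = 0.002, edgeR) and at 62.6 ± 14.5 CPM with FW1256 (adjusted p = 0.0755, edgeR), with per-library values at only 12.2% of the authors' mean. *skn-1*, which encodes the main transcription factor for glutathione and phase II genes, was at 234 ± 20.7, 230 ± 38.2 and 217 ± 34.7 CPM and was not called in either comparison, with per-library values at 37.5% of the authors' mean. *wdr-23*, at 298 ± 7.95, 337 ± 13.9 and 342 ± 9.28 CPM, was called higher in both (adjusted p = 0.00825 and 0.00291, edgeR). Its call with FW1256 was lost with library size alone (adjusted p = 0.0885, edgeR). *xrep-4* was lower in *eat-2* mutants (381 ± 18 to 332 ± 16 CPM, adjusted p = 0.0105, edgeR).

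Genes of NADPH supply and adjoining steps numbered 7 in the files. They include *tald-1* and *tkt-1*, whose enzymes belong to the non-oxidative pentose phosphate pathway and form no NADPH themselves, and *mthf-1*, whose reductase uses it. With FW1256, 3 rose and 2 fell (median -0.01), and in *eat-2* mutants 1 rose and 1 fell (median -0.05). Both pentose phosphate pathway genes, *tald-1* (transaldolase, 317 ± 7.25 to 389 ± 10.4 CPM, adjusted p = 9.18e-05, edgeR) and *tkt-1* (transketolase, 929 ± 46.3 to 1110 ± 44.7 CPM, adjusted p = 0.00164, edgeR) rose with FW1256, as did the malic enzyme gene *men-1* (394 ± 24.5 to 453 ± 15.1 CPM, adjusted p = 0.00553, edgeR). *idh-2*, for the mitochondrial NADP-dependent isocitrate dehydrogenase, fell with FW1256 from 153 ± 18.7 to 108 ± 4.46 CPM (adjusted p = 0.00104, edgeR). In *eat-2* mutants it rose to 185 ± 12.7 CPM, with groups that overlapped (adjusted p = 0.0288, edgeR), a call lost without unexposed WT replicate 2 or 3 and without *eat-2* replicate 1 or 4 (adjusted p up to 0.0754, edgeR). *nadk-2*, which encodes an NAD kinase, fell with FW1256 (266 ± 10.7 to 233 ± 12.7 CPM, adjusted p = 0.00713, edgeR). In *eat-2* mutants *tkt-1* fell to 790 ± 33.6 CPM (adjusted p = 0.00488, edgeR).

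Catalases need haem, and 6 genes of haem and metal handling are in the files, of which 4 were tested with FW1256 (2 rose and 1 fell, median 1.11) and 3 in *eat-2* mutants (1 rose, median 0.32). *hrg-4*, for an intestinal haem importer, was at 5.01 ± 1.51 CPM in unexposed WT, 22.4 ± 3.31 with FW1256 (2.15 on the log2 scale, adjusted p = 5.34e-05, edgeR), while *eat-2* mutants held 10.4 ± 2.81 CPM (1.06, adjusted p = 0.00894, edgeR). Its per-library values were at 58.1% of the authors' mean. *hrg-1*, for a haem transporter of lysosome-related compartments, was at 48.1 ± 13.4, 50.8 ± 9.4 and 60.1 ± 5.75 CPM and was called in neither. The ferritin gene *ftn-2* fell with FW1256 (668 ± 52.3 to 504 ± 21.3 CPM, adjusted p = 0.00026, edgeR) and was at 714 ± 34.9 CPM in *eat-2* mutants (adjusted p = 0.228, edgeR). *hrg-7* was called higher with FW1256 from a low level (1.55 ± 2.05 to 11.3 ± 4.49 CPM, 2.88 on the log2 scale, adjusted p = 0.0384, edgeR). Its per-library values in unexposed WT and *eat-2* mutants were at 0.843% of the authors' mean, and *abtm-1* was under 1 CPM in each group mean. The call of *hrg-7* was lost with DESeq2 (adjusted p = 0.136), in 1 edgeR fit over all groups and without any 1 library other than unexposed WT replicate 3, so that the list then held 1 rise and 1 fall. The median of 1.11 with FW1256 lay between *hrg-1* (0.07) and *hrg-4* (2.15), and it too depends on *hrg-7* being among the 4.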

How the data were processed

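RNAseq of 12 samples was analysed, in 3 groups of 4 taken from the sample labels. The members and lists were chosen with earlier results of these data known. Per library, the authors deposited estimated counts per gene, made from 150-nucleotide paired-end reads with kallisto 0.46.0 on the WBcel235 transcriptome and summarized to genes as length-scaled TPM, with no scaling between libraries. Tables of the authors' own comparisons, with fold changes and p-values that were not used, also hold a deposited mean signal of normalized counts per gene, which served only to measure how complete the per-library values are. There, per-library counts were divided by median-ratio size factors over unexposed WT and *eat-2* mutants, and genes needed a mean of at least 50. Of the 5272 genes, 5271 were found in Ensembl release 115, which gave symbols, positions and overlaps, and 175 were at 0 in all libraries. Genes outside these tables were not analysed here per library.

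Rounded counts were compared in R 4.3.3 by the quasi-likelihood test of edgeR 4.0.16 after filterByExpr and TMM (glmQLFit, glmQLFTest) for each pair of groups, with Benjamini-Hochberg adjustment over all genes tested and calls at an adjusted p under 0.05. SE is the log2 fold change over the square root of F, and 95% intervals use the t distribution with the fit's degrees of freedom. The fit was also run on simulated counts of independent libraries. That setting has no shared replicate effects and no incomplete counts, so it cannot test for these. CPM use TMM factors over all 12 libraries and totals over the genes of the files, so they exceed CPM over a whole transcriptome, and precision is lowest where counts are few. Every 2 replicates of a group differed beyond sampling noise (chi-square per gene between 11.6 and 48.1), and no library was merged with another.

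Named genes were all members and, per list, up to 5 genes with the largest change among those called against unexposed WT at a mean of at least 10 CPM, or else the most abundant. *skn-1*, *wdr-23*, *xrep-4*, *trx-2*, *pdi-3*, *gpx-6*, *mthf-1* and the tissue markers named singly fall outside this rule and were chosen after their values were seen. Similarity was Pearson r of log2 CPM with a prior count of 2. Alternatives were DESeq2 1.42.0, DESeq2's size factors, library size alone, other filters, a replicate block, 1 fit over all groups, each library left out, and, chosen after seeing the data, only genes at 80 to 125% of the authors' mean.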

Additional observations from a re-analysis of the deposited data

How the results depend on the processing

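The calls of *ctl-1* in all 3 comparisons, and of *ctl-2*, *sod-1* and *prdx-2* with FW1256 against either group, kept their direction and their side of the threshold in every alternative run, as did the call of *gsr-1* between FW1256 and *eat-2* mutants. With FW1256, the log2 fold change of *ctl-1* ranged from -0.99 to -0.88, of *ctl-2* from -0.97 to -0.85, of *sod-1* from 0.36 to 0.45 and of *prdx-2* from -1.84 to -1.51. In *eat-2* mutants, *ctl-1* ranged from -0.35 to -0.24, with adjusted p up to 0.0387. The fit of genes at 80 to 125% of the authors' mean, chosen after seeing the data, has no value for *sod-1*, *prdx-2* and *gsr-1*, which lie outside that range.

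Values near the threshold moved across it. *gsr-1* with FW1256 passed with DESeq2 (0.114), with no filter (0.134) and in 1 fit over all groups (0.129), and leaving out 1 library gave 0.092 to 0.148. *ctl-2* in *eat-2* mutants passed with DESeq2 (-0.215) and in 1 fit over all groups (-0.205), and leaving out 1 library gave -0.285 to -0.167. *gsr-1* in *eat-2* mutants no longer passed with library size alone (-0.124), and leaving out 1 library gave -0.155 to -0.116. Uncalled values changed sign: *prdx-2* in *eat-2* mutants with DESeq2's size factors (-0.003), DESeq2 (-0.004) and no filter (-0.009), and without 1 library *prdx-2* (-0.146 to 0.103) and *sod-1* (-0.06 to 0.089) in *eat-2* mutants and *sod-2* with FW1256 (-0.127 to 0.065). The cause was not tested.

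Genes called numbered 1817 with FW1256 (1583 to 1791 without 1 library, 1420 to 1985 over all alternatives), 1674 in *eat-2* mutants (1357 to 1631, 1331 to 1821) and 2575 between them (2425 to 2550, 2036 to 2835). Library size alone lowered the share of higher calls with FW1256 from 50.7% to 39.6% and moved the median log2 fold change of all genes from 0.00 to -0.06, and between FW1256 and *eat-2* mutants from -0.04 to -0.12. With no filter the latter was -0.27. Of 315 counts for single lists, 12 moved by more than 1.5 times.

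Groups share replicate numbers 1 to 4, and deviations of same-numbered libraries correlated at -0.0408 to 0.239. The labels do not say whether the numbers mark a shared batch, and these correlations cannot decide it. With the replicate block, *ctl-2* in *eat-2* mutants passed (-0.201, adjusted p = 0.0314, edgeR), genes called were 1767, 1821 and 2593, and no other call of a member changed. Replicates 2 (0.208) and 4 (0.239) of *eat-2* mutants and unexposed WT correlated best with their own number, while replicates 1 and 3 did not.

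The per-library values limit *prdx-2* most, at under 1% of the authors' mean, followed by *sod-1* and *gsr-1*.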
